A study of Mus musculus with 12 samples.

Results

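The cell cycle and DNA replication genes are 40 genes that dividing cells need, 20 for copying DNA and 20 for mitosis. They were matched by gene symbol in the 12 count files, and all 40 were found among 35791 genes. All 40 also passed the filter on low counts, which left 13154 genes for testing.

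RNA was counted in 12 libraries of small bowel from male C57BL/6 mice with no transgene or deletion, 3 in each of 4 groups. In Post 2'-FL the bowel was taken after ileocecal resection, which removes the end of the ileum and the cecum, from mice given 2'-fucosyllactose (2'-FL), a fucosylated sugar of human milk. In Post control it was taken after the same resection without the sugar. Pre 2'-FL and Pre control are labelled as taken before resection, with and without 2'-FL. For every group the labels give an age of 8 to 10 weeks, resection on day 0, a liquid diet tied to day 7 and then chow, and collection 8 weeks after resection. The dose of the sugar was 2.5 g/L, starting on day 0. The collection time contradicts the Pre labels, as does a supplement that began on the day of resection, and the label of each library was kept here. Each label speaks of a bowel from 1 mouse, but nothing says that libraries of a group came from separate mice, so p-values measure only the spread between libraries. The bowel segment is not given, and Pre and Post may differ in segment, age and diet as well as resection, which cannot be told apart.

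In the bowel epithelium, division is confined to the crypts. There stem cells and their transit-amplifying daughters cycle before they move onto the villus and stop. Other cells of the bowel, such as those of lymphoid follicles, divide outside the crypts. A cell that commits to division activates the transcription factor E2F1 and cyclin E, loads the MCM helicase ring onto origins with CDC6 and CDT1, and raises its supply of deoxynucleotides. In late S and G2 phase a later wave of genes follows, through FOXM1 and a promoter element called CHR, and supplies cyclin B, the mitotic kinases, the spindle motors and the ubiquitin machinery that ends mitosis.

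Library totals ran from 5663275 to 9385266 counts. The relation between a gene's level and the length of its transcript moved with the groups and touches the results below; the labels do not record where it comes from, and whether it is technical was not tested. Levels were centred on each gene's mean over the libraries, and Spearman's rho of these log2 values with transcript length, taken across genes, ranged from -0.60 to -0.44 in Post 2'-FL and from -0.21 to 0.35 in Post control. It ranged from 0.36 to 0.50 in Pre 2'-FL and from 0.26 to 0.45 in Pre control. Short transcripts were therefore high and long ones low in Post 2'-FL. The TMM scaling factors were also low there, from 0.801 to 0.959 in Post 2'-FL, against 0.962 to 1.171 over the other 9 libraries. The labelled tissue showed its markers: the sum over 12 enterocyte genes ran from 68500 to 72300 CPM in Post 2'-FL, 54500 to 66800 in Post control, 25500 to 50100 in Pre 2'-FL and 37700 to 56700 in Pre control. Of 7 exocrine pancreas genes 4 had 0 counts in all 12 libraries, and no marker of the other cell types examined did. Each comparison is given on the counts as deposited and again after a correction for length and GC content in each library, called corrected below.

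The promoters of 4 members are printed because they carry the elements by which the replication and mitosis classes are usually told apart. They are the 2 replication and 2 mitosis members with the smallest p in the control arm among those with the motif of their class. Each run is the 250 bases before the start recorded for the promoter, 5′ to 3′ on the strand of the gene, from RefSeq on GRCm38.p6. The runs of Mcm5, Mki67 and Top2a reach a short way into the span annotated for the gene. For 29 of 33 member promoters the first transcribed bases opened an annotated transcript of the gene. Mcm6 (chr1:128359706-128359955, minus strand) and Mcm5 (chr8:75109259-75109508, plus strand) encode subunits of the helicase ring. Capitals mark matches to the E2F motif, searched on both strands as TTTCCCGC, TTTCGCGC, TTTGCCGC or TTTGGCGC, and a longer capital run is 2 matches on opposite strands that overlap.
Mcm6: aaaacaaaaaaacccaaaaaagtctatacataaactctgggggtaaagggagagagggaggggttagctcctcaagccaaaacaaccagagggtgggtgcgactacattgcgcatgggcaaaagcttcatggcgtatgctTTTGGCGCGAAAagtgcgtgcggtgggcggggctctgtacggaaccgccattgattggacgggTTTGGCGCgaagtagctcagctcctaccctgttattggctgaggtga
Mcm5: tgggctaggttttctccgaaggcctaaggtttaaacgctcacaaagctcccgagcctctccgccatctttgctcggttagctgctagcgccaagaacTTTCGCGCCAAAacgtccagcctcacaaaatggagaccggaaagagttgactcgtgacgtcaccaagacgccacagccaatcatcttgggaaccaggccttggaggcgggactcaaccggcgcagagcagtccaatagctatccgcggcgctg
Mki67 (chr7:135716380-135716629, minus strand) encodes the Ki-67 protein that coats mitotic chromosomes, and Top2a (chr11:99024190-99024439, minus strand) the topoisomerase that untangles them. Capitals mark the CHR motif, searched on both strands as TTTGAA or TTCGAA.
Mki67: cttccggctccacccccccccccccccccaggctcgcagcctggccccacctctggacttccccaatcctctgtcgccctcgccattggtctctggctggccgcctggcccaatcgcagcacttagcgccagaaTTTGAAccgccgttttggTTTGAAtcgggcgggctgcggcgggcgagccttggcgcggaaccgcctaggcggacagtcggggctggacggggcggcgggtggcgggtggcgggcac
Top2a: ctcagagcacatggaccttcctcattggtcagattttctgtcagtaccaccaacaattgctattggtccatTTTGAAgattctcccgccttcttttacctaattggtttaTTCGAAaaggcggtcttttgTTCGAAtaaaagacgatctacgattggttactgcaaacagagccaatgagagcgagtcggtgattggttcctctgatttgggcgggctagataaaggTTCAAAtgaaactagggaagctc

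Promoters were held for 32 of the 40 members. An E2F match lay in 4 of 16 replication genes (Mcm5, Mcm6, Mcm7 and Cdc6) and in 1 of 16 mitosis genes (Cdk1), against 1.9% of 32851 mouse promoters of the same length. A CHR match lay in 3 of 16 replication genes (Mcm2, Mcm7 and Cdc45) and in 8 of 16 mitosis genes (Mki67, Top2a, Cdk1, Ccnb2, Cdc20, Bub1b, Kif11 and Ube2c), against 17.1% of all promoters. The CCAAT motif, which often accompanies CHR, lay in 10 of 16 replication and 14 of 16 mitosis genes, against 33.8% of all. These are matches of letters in the window and not measured binding.

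Levels are given as CPM, counts scaled to a common library size, with TMM factors. Per kilobase of transcript in Pre control, Pcna stood highest of the 40 at a mean level of 60.0 CPM per kb, followed by Ube2c at 36.2 and Ccna2 at 17.3. PCNA is the clamp that holds polymerases on DNA, UBE2C the ubiquitin enzyme of the anaphase-promoting complex and CCNA2 cyclin A2. The lowest levels on this scale were 1.09 CPM per kb for Cdc6 and 1.25 for both Gins2 and Cenpe. Members at the low end rest on few counts: Cdc6 had 0.925 CPM in Post control 1, and E2f1 between 1.28 and 5.71 CPM over the 12 libraries.

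**Figure D1:**
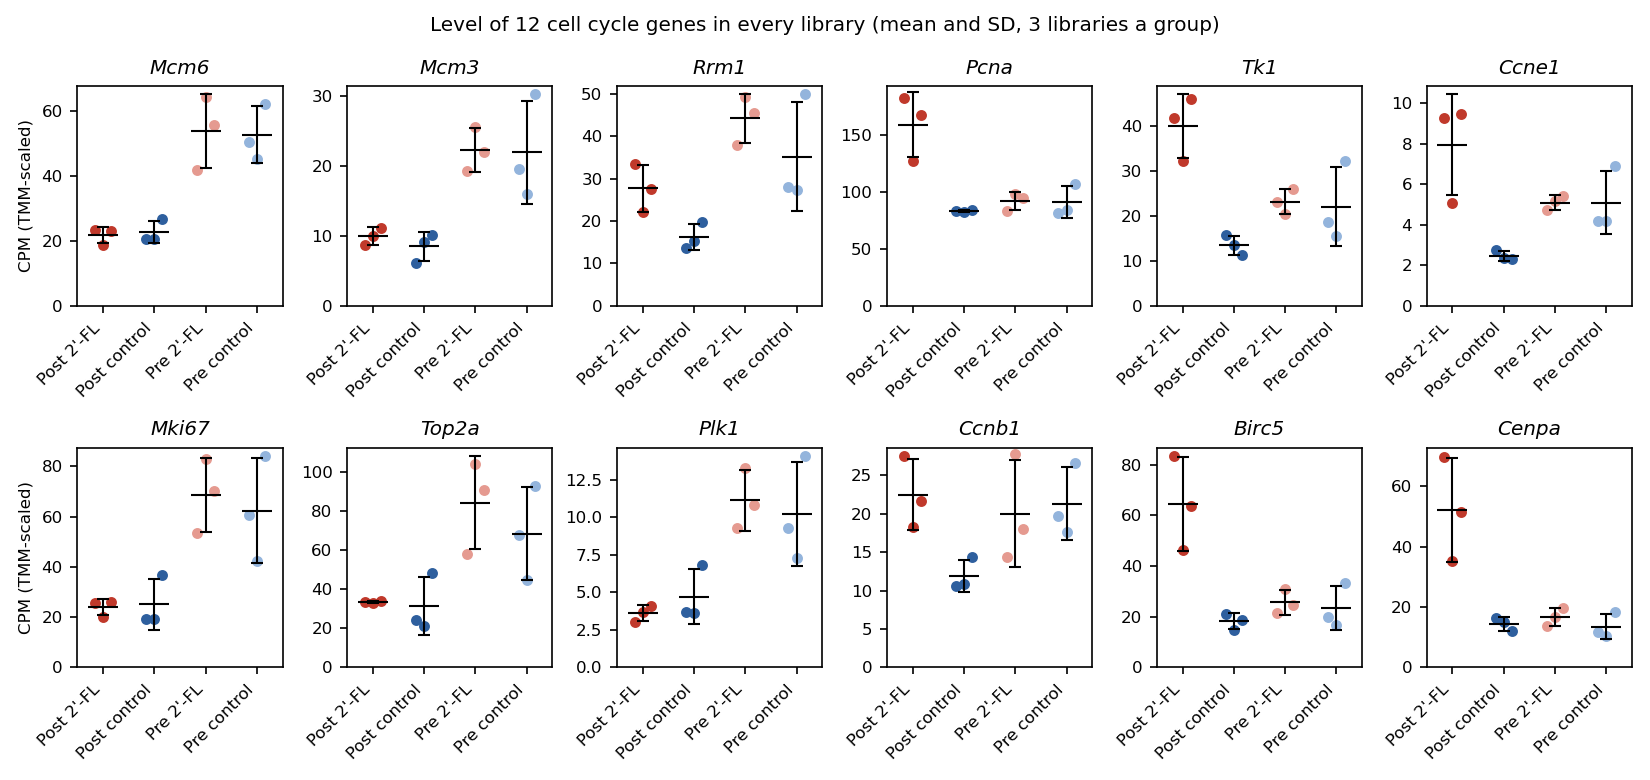
Level of 12 of the genes in every library, in CPM on a linear axis from 0, with the 4 groups along the x axis; points are libraries and bars the mean and SD of 3 libraries. Mcm6, Mcm3, Mki67, Top2a and Plk1 were low in both Post groups, while Pcna, Tk1, Ccne1, Birc5 and Cenpa were high in Post 2'-FL.

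Without the supplement, the cell cycle genes were lower in resected bowel. Of the 40 members, 17 fell in Post control against Pre control and 0 rose, where 6.33% of all tested genes fell and 4.42% rose; the 17 are 42.5% of the members. The fall covered 12 of 20 replication genes and 5 of 20 mitosis genes. The median log2 change was -0.88 over the members and -0.05 over all genes, and 39 of 40 estimates were below 0. In whole bowel, fewer cycling cells and less RNA per cell cannot be told apart. All calls here and below are from edgeR's quasi-likelihood F test at an adjusted p under 0.05, Benjamini-Hochberg over 13154 genes.

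The helicase genes fell together: 9 of the 12 genes for helicase loading and activation passed the test. Mcm6 (Entrez 17219, chromosome 1, 128331575 to 128359705 on GRCm38.p6) had 20.8, 20.7 and 26.8 CPM in Post control, against 50.7, 45.2 and 62.4 CPM in Pre control. The groups did not overlap, and its log2 change was -1.21 ± 0.21 (SE, adjusted p = 0.00544). Mcm3 had 6.16, 9.14 and 10.2 CPM in Post control, against 19.6, 16 and 30.2 CPM in Pre control, a change of -1.35 ± 0.26 (SE, adjusted p = 0.00868). Mcm2 had 9.09, 5.85 and 12.8 CPM in Post control, against 23.4, 19.7 and 34.5 CPM in Pre control, the largest change of the ring at -1.45 ± 0.30 (SE, adjusted p = 0.0109). For both genes Post control 3 was the highest of its group and Pre control 3 the highest of the other. The remaining ring subunits fell by 1.34 (Mcm5), 1.06 (Mcm7) and 0.97 (Mcm4) on the log2 scale. The loaders CDC6 and CDT1 followed, with log2 changes of -1.32 for Cdc6 and -1.10 for Cdt1, as did Mcm10, a factor that helps the helicase to open DNA, at -0.95. Cdc45, Gins1 and Gins2, whose proteins turn the loaded ring into a working helicase, did not pass, at -0.51 ± 0.38, -0.16 ± 0.45 and -0.19 ± 0.30 (log2 change, SE).

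Among the other replication genes the calls were uneven. Both subunits of ribonucleotide reductase, which makes deoxynucleotides, fell: Rrm1 by 1.10 and Rrm2 by 1.09 on the log2 scale. Tyms, the thymidylate synthase gene, did not pass at -0.10 ± 0.20, and Tk1, the thymidine kinase gene of the salvage route, did not at -0.71 ± 0.26 (SE). Pcna (Entrez 18538, chromosome 2, 132249286 to 132253180) had 83.2, 81.9 and 84.1 CPM in Post control, against 81.6, 84.4 and 107 CPM in Pre control. The 2 groups overlapped, and the log2 change of -0.13 ± 0.18 (SE, adjusted p = 0.649) did not pass. Of the genes for entry into S phase, E2f1 fell by 1.37 on the log2 scale, and Ccne1 and Ccne2, for the E cyclins, did not pass at -1.03 ± 0.32 and -0.40 ± 0.40 (log2 change, SE).

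Fewer mitosis genes passed, although 19 of 20 estimates were below 0. Mki67 (Entrez 17345, chromosome 7, 135689784 to 135716450) had 19.3, 19.2 and 36.9 CPM in Post control, against 60.5, 42.4 and 84.0 CPM in Pre control, a log2 change of -1.30 ± 0.29 (SE, adjusted p = 0.0168). Nusap1, for a spindle microtubule protein, had 8.01, 5.12 and 11.5 CPM in Post control, against 22.0, 13.1 and 23.5 CPM in Pre control, a change of -1.22 ± 0.32 (SE, adjusted p = 0.0295). Top2a had 24.5, 21.0 and 48.3 CPM in Post control, against 67.8, 44.8 and 92.6 CPM in Pre control. Post control 3 lay above Pre control 2 here, so the groups overlapped, with a change of -1.12 ± 0.32 (SE, adjusted p = 0.0401). Plk1, the polo kinase gene, fell by 1.08, and Cdc20, for an activator of the anaphase-promoting complex, fell by 0.98. Ccnb1, for cyclin B1, had 10.6, 10.8 and 14.3 CPM in Post control, against 19.7, 17.6 and 26.6 CPM in Pre control; the groups did not overlap, but the change of -0.83 ± 0.26 (SE, adjusted p = 0.0579) did not pass. The remaining mitosis genes did not pass, with log2 changes between -0.98 (Cenpe) and 0.09 (Cenpa).

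Corrected for length and GC, 19 members fell and 0 rose, against 5% and 7.60% of all genes, and 15 of the 19 were among the 17 called as deposited. Tk1, Ccne1, Ccnb1 and Kif11 were added, and Mcm10 and Cdc6 were lost. The number rests on single libraries. Without Pre control 3, Post control 1 or Post control 2, only 2 members were called each time; without Pre control 2, Pre control 1 and Post control 3 the numbers were 11, 12 and 19. The median change of the members stayed between -1.13 and -0.65, and Mcm3 and Mcm6 were called whichever library was left out. Over all 40 members, the 3 Post control libraries lay below the 3 Pre control libraries for 20 and above them for 0, where 17.6% and 17.3% of all genes did so.

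Further genes of the same machinery were counted from lists compiled for this comparison. Of 42 further replication genes 12 fell and 0 rose (11 and 0 corrected), among them Dnmt1 and Uhrf1, which copy DNA methylation, at log2 changes of -1.29 and -1.56, Pola1, the catalytic subunit of polymerase alpha, at -1.27, and the clamp loader gene Rfc1 at -0.94. Of 50 further mitosis genes 6 fell and 0 rose (11 and 0 corrected). Of 38 tested regulators of the cycle 5 fell and 4 rose (3 and 6 corrected). Over all genes 6.33% fell and 4.42% rose as deposited, and 5% fell and 7.60% rose corrected. E2f7, for a repressor of E2F targets, fell by 2.40, and Ccnd1, for cyclin D1, fell by 1.42 on the log2 scale. E2f2 rose by 0.92, E2f3 by 0.84 and Cdkn2b, for an inhibitor of the cyclin D kinases, by 1.06. Myc and Cdkn1a, the gene of the inhibitor p21, did not pass, at -0.31 and 0.40.

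Markers of the crypt moved with these genes. Of 12 crypt stem cell markers 8 fell, Ascl2 by 2.10 and Lgr5 by 1.75 on the log2 scale, and the summed level of the list ran from 253 to 320 CPM in Post control and from 374 to 529 CPM in Pre control. All 9 Paneth cell markers fell, with a summed level of 6890 to 8810 CPM in Post control and 25100 to 45400 CPM in Pre control. Of 12 enterocyte markers 1 fell and 1 rose, where 6.33% of all genes fell and 4.42% rose. In lists this short, 1 call is no result about a cell type. Of 9 tested B cell markers, which report lymphoid follicles with their own dividing cells, 1 fell. All 9 B cell estimates were below 0, with a median log2 change of -2.48. Of 9 T cell markers 1 fell, but 7 of 9 estimates were above 0, with a median log2 change of 1.10, and their sum ran from 215 to 441 CPM in Post control and from 53.1 to 213 CPM in Pre control. Of 8 myeloid markers 2 fell, with a sum of 164 to 236 CPM in Post control and 308 to 547 CPM in Pre control. Of 8 smooth muscle markers 1 fell, with a sum of 787 to 1230 CPM in Post control and 1290 to 1590 CPM in Pre control. These 3 sums did not overlap between the groups. Of 7 endothelial markers 1 fell, and all 7 estimates were below 0, with a median log2 change of -1.55. Their sums overlapped, at 22.1 to 38.1 CPM in Post control and 23.3 to 122 CPM in Pre control. Of 6 tested fat cell markers 0 were called, and the single pancreas marker tested, Cela1, rose by 1.04 on the log2 scale. Corrected, 6 stem cell, 9 Paneth cell, 1 enterocyte, 1 B cell, 2 myeloid and 1 smooth muscle markers fell, where 5% of all genes fell. In that fit 1 enterocyte marker and Cela1 rose, where 7.60% of all genes rose, and 0 T cell, 0 endothelial and 0 fat cell markers were called. The B cell sum was 29.6, 20.7 and 33.3 CPM in Post control, against 158, 25.4 and 38.5 CPM in Pre control. Those groups overlapped, and the high end rested on Pre control 1. The part of any of these cell types in the fall of the cell cycle genes was not tested.

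**Figure D2:**
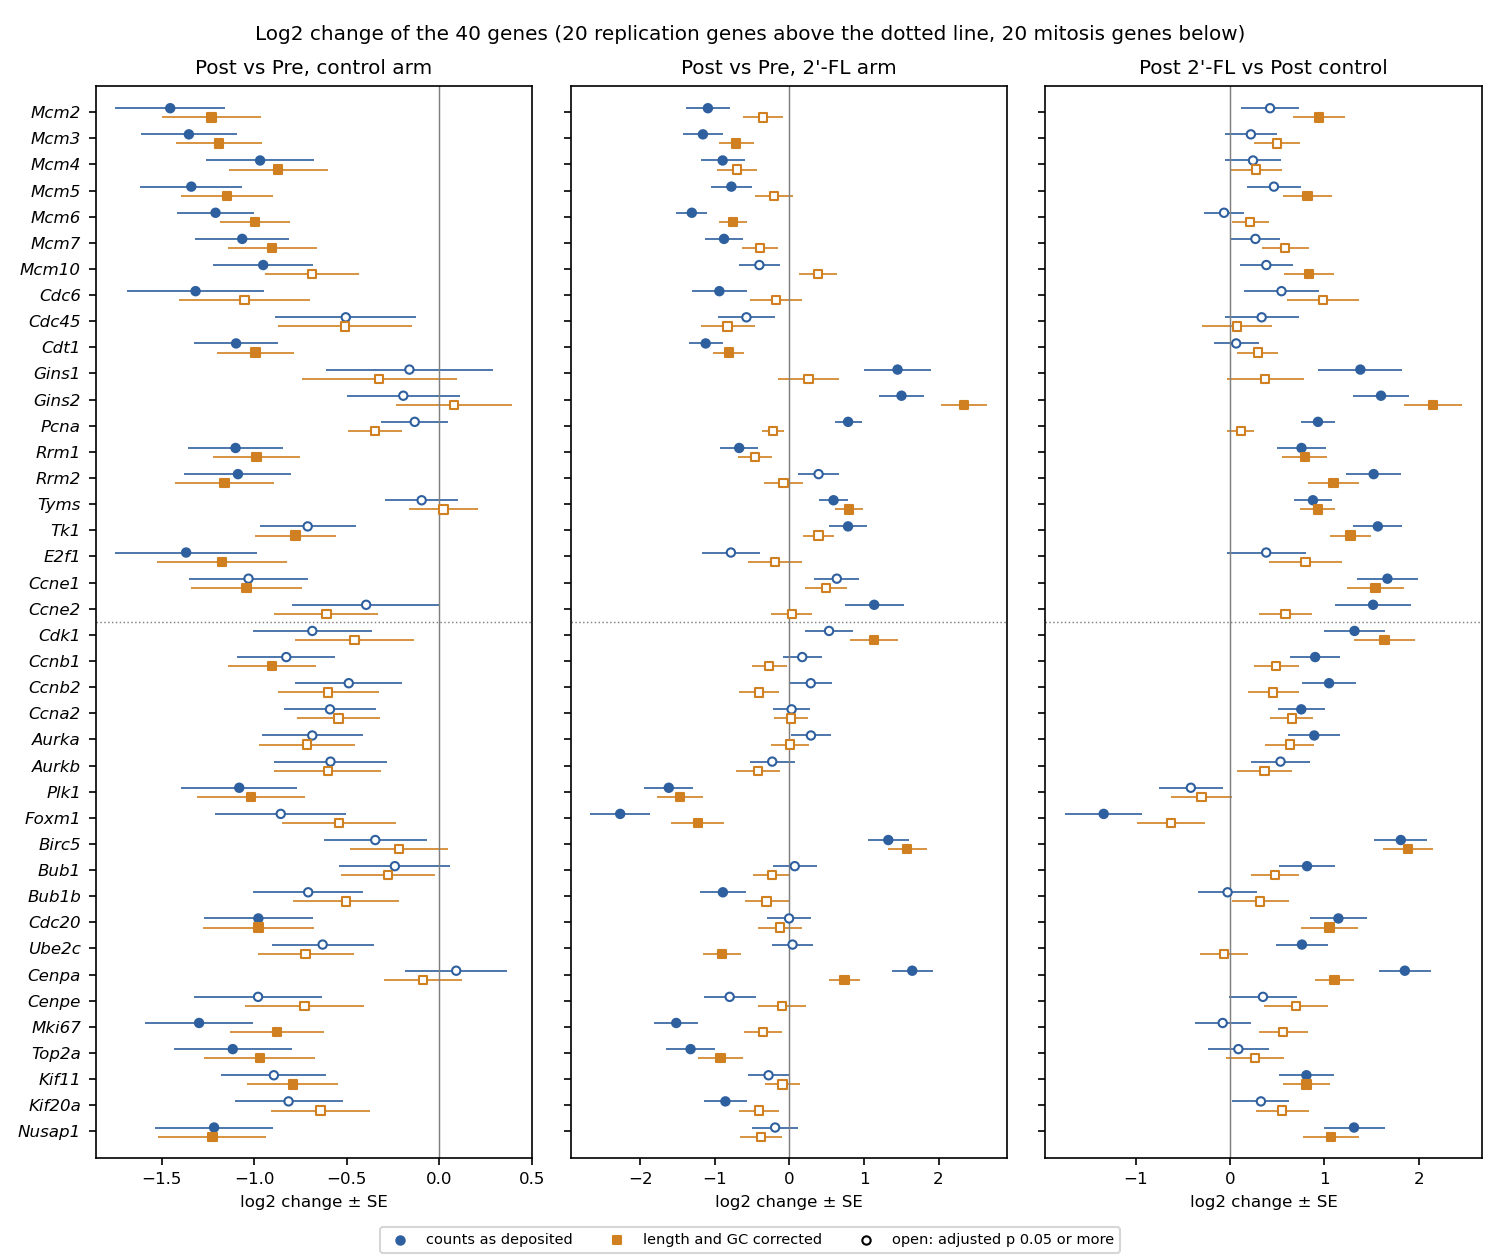
Log2 change with its SE of each of the 40 genes (rows) in 3 comparisons (panels); blue circles are counts as deposited, orange squares the corrected values, and open symbols have an adjusted p of 0.05 or more. The ring genes Mcm2 to Mcm7 lie left of 0 in both arms, Gins1, Gins2, Birc5 and Cenpa lie far right of 0 in the 2'-FL arm as deposited, and nearly all genes lie right of 0 between the Post groups.

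With the supplement, the cell cycle genes split. Of the 40 members, 15 fell and 8 rose in Post 2'-FL against Pre 2'-FL, 37.5% and 20% of them, where 30.0% of all genes fell and 25.3% rose. Both shares were near those of all genes and are no result about the members as a set. The 3 Post 2'-FL libraries lay below the 3 Pre 2'-FL libraries for 16 members and above them for 8, where 33.7% and 27.9% of all genes did so. The median log2 change was -0.26 over the members and -0.13 over all genes.

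The genes that fell were mostly the ring and the long mitosis genes. All of Mcm2 to Mcm7 fell, by 0.78 (Mcm5) to 1.31 (Mcm6) on the log2 scale. Mcm6 had 23.5, 18.9 and 23.1 CPM in Post 2'-FL, against 41.9, 64.5 and 55.9 CPM in Pre 2'-FL (-1.31 ± 0.21, SE, adjusted p = 0.000191). Cdt1, whose protein brings the ring to the origin, had 8.14, 9.24 and 8.74 CPM in Post 2'-FL, against 16.9, 19.2 and 21.0 CPM in Pre 2'-FL (-1.12 ± 0.23, SE, adjusted p = 0.00104). In both genes each Post library was below each Pre library. Cdc6 and Rrm1 also fell, by 0.94 and 0.67 on the log2 scale.

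On the mitosis side Foxm1, for the transcription factor of the G2 and M wave (Entrez 14235, chromosome 6, 128362994 to 128375886), had 1.89, 2.93 and 2.60 CPM in Post 2'-FL, against 10.4, 13.9 and 12 CPM in Pre 2'-FL. That was the largest fall of the 40, a log2 change of -2.27 ± 0.40 (SE, adjusted p = 0.000361). Mki67 had 25.6, 20.2 and 26.2 CPM in Post 2'-FL, against 53.4, 82.8 and 70.0 CPM in Pre 2'-FL (-1.52 ± 0.30, SE, adjusted p = 0.000777). Top2a had 33.3, 33.1 and 34.0 CPM in Post 2'-FL, against 58.1, 104 and 90.5 CPM in Pre 2'-FL (-1.33 ± 0.32, SE, adjusted p = 0.00337). None of these 3 genes overlapped between the groups. Plk1 had 3.03, 3.70 and 4.09 CPM in Post 2'-FL, against 9.31, 13.3 and 10.8 CPM in Pre 2'-FL, also apart (-1.62 ± 0.33, SE, adjusted p = 0.00104). Bub1b, a spindle checkpoint gene, fell by 0.89 and the motor gene Kif20a by 0.86.

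The genes that rose were Gins1 (1.45), Gins2 (1.50), Pcna (0.79), Tyms (0.59), Tk1 (0.79), Ccne2 (1.14), Birc5 (1.33) and Cenpa (1.65 on the log2 scale). Cenpa, for the histone variant that marks centromeres (Entrez 12615, chromosome 5, 30666877 to 30674837), had 69.9, 35.4 and 51.5 CPM in Post 2'-FL, against 13.9, 16.6 and 19.7 CPM in Pre 2'-FL (1.65 ± 0.27, SE, adjusted p = 0.000235). Gins2 had 14.4, 11.9 and 12.7 CPM in Post 2'-FL, against 4.11, 4.53 and 5.08 CPM in Pre 2'-FL (1.50 ± 0.30, SE, adjusted p = 0.000841). Pcna had 182, 127 and 167 CPM in Post 2'-FL, against 82.9, 98.3 and 94.4 CPM in Pre 2'-FL (0.79 ± 0.18, SE, adjusted p = 0.00232). Ccnb1 had 27.5, 18.3 and 21.6 CPM in Post 2'-FL, against 14.3, 27.7 and 18 CPM in Pre 2'-FL; the groups overlapped, and the change of 0.17 ± 0.26 (SE) did not pass. For Ccne2 the single library Post 2'-FL 1 stood apart, with 46.0, 14.6 and 14 CPM in Post 2'-FL, against 12.9, 8.91 and 11.9 CPM in Pre 2'-FL, and the log2 change was 0.35 without it. The 17 members that did not pass had log2 changes from -0.80 (Cenpe) to 0.64 (Ccne1). Among them were Cdk1 at 0.53, Rrm2 at 0.39, Cdc20 at 0.00 and E2f1 at -0.79, all as deposited.

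Fewer of these calls stood after the length and GC correction, which left 7 members that fell and 5 that rose, against 14.8% and 21.1% of all genes. Mcm3, Mcm6, Cdt1, Plk1, Foxm1 and Top2a still fell, joined by Ube2c, and Gins2, Tyms, Birc5 and Cenpa still rose, joined by Cdk1, the kinase gene of mitotic entry. Mki67 had a corrected log2 change of -0.35 ± 0.25 and Pcna one of -0.22 ± 0.14 (SE), and neither passed. The corrected values turn on which transcript gives the length: with coding length 3 members fell and 3 rose, and with the shortest transcript 6 fell and 3 rose. In the counts as deposited 12 members fell in both arms, the 6 ring genes with Cdc6, Cdt1, Rrm1, Plk1, Mki67 and Top2a, and 0 fell in the control arm and rose in the 2'-FL arm. Corrected, Mcm3, Mcm6, Cdt1, Plk1 and Top2a fell in both.

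Of the 42 further replication genes 9 fell and 13 rose in this arm, with Rfc1 at a log2 change of -1.41, Gins4 at 1.41, Orc4 at 1.47 and Rpa3 at 2.12; corrected, 3 fell and 8 rose, and the changes of these 4 were -0.84, 0.70, 0.90 and -0.01, the last not called. Of the 50 further mitosis genes 12 fell and 10 rose, with the condensin gene Ncapd2 at -2.23 and the kinetochore gene Spc24 at 1.52; corrected, 10 fell and 3 rose, with these 2 still called at -1.22 and 0.89. Of the 38 regulators 13 fell and 6 rose, and corrected 6 fell and 7 rose. Over all genes 30.0% fell and 25.3% rose as deposited, and 14.8% fell and 21.1% rose corrected. As deposited the counts of these further lists were near those shares and are no result about the lists as sets. Ccnd1 fell by 1.46, Ccnd2 by 1.62 and Myc by 1.24 on the log2 scale, Cdkn2b rose by 1.77, and Cdkn1a did not pass at 0.11. Corrected, Ccnd2 at -0.75 and Cdkn2b at 1.36 were still called, and Ccnd1 at -0.83 and Myc at -1.13 were not. Of the 12 stem cell markers 7 fell and 0 rose, with a summed level of 306 to 446 CPM in Post 2'-FL and 314 to 658 CPM in Pre 2'-FL, and of the 9 Paneth cell markers 4 fell. All 7 endothelial markers fell, with a sum of 15.9 to 25.7 CPM in Post 2'-FL and 68.8 to 152 CPM in Pre 2'-FL, and 5 of 6 tested fat cell markers fell, with a sum of 10.2 to 46.8 CPM in Post 2'-FL and 59.7 to 500 CPM in Pre 2'-FL. Of 9 T cell markers 1 fell and 2 rose, of 8 myeloid markers 2 fell, of 8 smooth muscle markers 3 fell and 1 rose, and of 9 B cell markers 3 fell. Of 12 enterocyte markers 5 fell and 2 rose, but their sum was higher, at 68500 to 72300 CPM in Post 2'-FL and 25500 to 50100 CPM in Pre 2'-FL. Cela1 rose by 1.90 on the log2 scale. Corrected, 1 stem cell marker fell and 1 rose, and 9 Paneth, 4 endothelial, 6 fat cell and 0 enterocyte markers fell. The part of these cell types in the split was not tested.

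Between the resected groups, the cell cycle genes were higher with the supplement. Of the 40 members, 21 rose and 1 fell in Post 2'-FL against Post control, where 18.8% of all genes rose and 19.3% fell; the 21 are 52.5% of the members. They were 9 of 20 replication genes and 12 of 20 mitosis genes, and 9 of 20 and 6 of 20 corrected. The median log2 change was 0.76 over the members and 0.02 over all genes, and 35 of 40 estimates were above 0. The 3 Post 2'-FL libraries lay above the 3 Post control libraries for 22 members and below them for 1, where 25.2% and 25.4% of all genes did so. The same 3 Post control libraries serve the control arm above, so a low level in them enters both comparisons.

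All 4 genes of nucleotide supply rose. Tk1 had 41.9, 32.2 and 46.1 CPM in Post 2'-FL, against 15.7, 13.5 and 11.4 CPM in Post control (1.57 ± 0.26, SE, adjusted p = 0.000898). Rrm2 had 29.2, 21.1 and 25.3 CPM in Post 2'-FL, against 6.01, 8.41 and 11.5 CPM in Post control (1.52 ± 0.29, SE, adjusted p = 0.0016). Each Post 2'-FL library exceeded each Post control library for both genes. Tyms had 53.0, 34.0 and 47.3 CPM in Post 2'-FL, against 24.2, 26.1 and 22.7 CPM in Post control, again without overlap (0.88 ± 0.20, SE, adjusted p = 0.00399). Rrm1 rose by 0.76 on the log2 scale. Both E cyclin genes rose, Ccne1 by 1.67 and Ccne2 by 1.52 on the log2 scale. Without Post 2'-FL 1 the change of Ccne2 was 0.72 and not called (adjusted p = 0.0666 in edgeR), and corrected it was 0.59 and not called. E2f1 did not pass at 0.38 ± 0.42 (SE). Ccne1 had 9.28, 5.08 and 9.49 CPM in Post 2'-FL, against 2.77, 2.38 and 2.30 CPM in Post control.

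Of the 12 genes for helicase loading and activation, Gins1 and Gins2 rose as deposited, and each of the ring genes Mcm2 to Mcm7 failed the test, with log2 changes from -0.07 (Mcm6) to 0.46 (Mcm5). Gins2 had 14.4, 11.9 and 12.7 CPM in Post 2'-FL, against 4.31, 4.75 and 3.81 CPM in Post control (1.60 ± 0.30, SE, adjusted p = 0.00144). Mcm6 had 23.5, 18.9 and 23.1 CPM in Post 2'-FL, against 20.8, 20.7 and 26.8 CPM in Post control, 2 overlapping groups (-0.07 ± 0.21, SE, adjusted p = 0.828). Pcna had 182, 127 and 167 CPM in Post 2'-FL, against 83.2, 81.9 and 84.1 CPM in Post control (0.93 ± 0.18, SE, adjusted p = 0.00172). Cdc6, Cdt1, Mcm10 and Cdc45 did not pass, at log2 changes of 0.54, 0.06, 0.38 and 0.33. Corrected, 4 of the 12 helicase genes rose (Gins2, Mcm2, Mcm5 and Mcm10), all 12 estimates were above 0, and their median was 0.54, against 0.61 for all members.

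Of the 8 genes for mitotic kinases, cyclins and their regulator Foxm1, 5 rose as deposited and 1, Cdk1, corrected. As deposited, Cdk1 rose by 1.32, Ccnb1 by 0.90, Ccnb2 by 1.05, Ccna2 by 0.75 and Aurka, the gene of the spindle pole kinase Aurora A, by 0.89 on the log2 scale. Cdk1 had 53.0, 31.3 and 44.1 CPM in Post 2'-FL, against 15.9, 15.5 and 19.7 CPM in Post control (1.32 ± 0.33, SE, adjusted p = 0.00631). Ccnb1 had 27.5, 18.3 and 21.6 CPM in Post 2'-FL, against 10.6, 10.8 and 14.3 CPM in Post control, and neither gene overlapped between the groups. Birc5, for survivin of the chromosomal passenger complex (Entrez 11799, chromosome 11, 117849237 to 117855743), had 83.3, 46.2 and 63.6 CPM in Post 2'-FL, against 21.1, 14.8 and 18.9 CPM in Post control (1.81 ± 0.28, SE, adjusted p = 0.000806). Cenpa had 69.9, 35.4 and 51.5 CPM in Post 2'-FL, against 16.5, 15 and 12 CPM in Post control (1.85 ± 0.27, SE, adjusted p = 0.000789). Nusap1 had 27.3, 17.6 and 17.9 CPM in Post 2'-FL, against 8.01, 5.12 and 11.5 CPM in Post control (1.31 ± 0.32, SE, adjusted p = 0.00626). All 3 stood apart without overlap, and in each of them Post 2'-FL 1 was the highest library. Cdc20 rose by 1.15, Bub1 by 0.82, Kif11 by 0.81 and Ube2c by 0.76. Without Post 2'-FL 1, Bub1 stood at 0.50 and Kif11 at 0.51, and neither was called.

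Foxm1 was the single member that fell, with 1.89, 2.93 and 2.60 CPM in Post 2'-FL, against 5.55, 3.84 and 9.22 CPM in Post control (-1.34 ± 0.41, SE, adjusted p = 0.0186). Its corrected change of -0.63 ± 0.36 did not pass, nor did its change of -0.86 without Post control 3 or of -1.19 without Post 2'-FL 1. Mki67 had 25.6, 20.2 and 26.2 CPM in Post 2'-FL, against 19.3, 19.2 and 36.9 CPM in Post control (-0.08 ± 0.30, SE). Top2a had 33.3, 33.1 and 34.0 CPM in Post 2'-FL, against 24.5, 21.0 and 48.3 CPM in Post control (0.09 ± 0.32, SE). In both genes Post control 3 lay above the whole of Post 2'-FL and the other two Post control libraries below it, and neither passed. Plk1, Bub1b, Kif20a, Cenpe, for a kinetochore motor, and Aurkb, for the kinase of the chromosomal passenger complex, did not pass either, at log2 changes of -0.42, -0.03, 0.33, 0.35 and 0.53.

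Corrected for length and GC, 15 members rose and 0 fell, against 10.3% and 11.4% of all genes. Of these, 12 were called as deposited too: Gins2, Rrm1, Rrm2, Tyms, Tk1, Ccne1, Cdk1, Birc5, Cdc20, Cenpa, Kif11 and Nusap1. The other three were Mcm2, Mcm5 and Mcm10, at corrected log2 changes of 0.94, 0.82 and 0.84. Pcna had a corrected change of 0.11 ± 0.14 and Ube2c one of -0.07 ± 0.26 (SE), and neither passed. With the shortest transcript 16 members rose and with coding length 22. Leaving out single libraries gave 11 to 21 calls in all, the 11 without Post 2'-FL 1. Whichever library was left out, Gins2, Pcna, Rrm2, Tyms, Tk1, Ccne1, Cdk1, Birc5, Cdc20, Cenpa and Nusap1 were called. Corrected, 9 were called without Post 2'-FL 3, 8 without Post control 2, and 7 without Post 2'-FL 1 and again without Post control 1.

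Of the 42 further replication genes 19 rose and 0 fell, with Rpa3 at a log2 change of 1.91, Orc6 at 1.78, Dut at 1.73 and Tipin at 1.52. Corrected, 9 rose, Dut at 1.43 and Orc6 at 0.93 among them, while Rpa3 at 0.14 and Tipin at 0.58 were not called. Of the 50 further mitosis genes 21 rose and 1 fell, with Spc24 at 1.95, and corrected 9 rose, with Spc24 at 1.42. Of the 38 tested regulators 5 rose and 4 fell, and corrected 2 rose and 3 fell. Over all genes 18.8% rose and 19.3% fell, and corrected 10.3% rose and 11.4% fell. The regulator counts are no result about that list as a set. Cdk4, for the cyclin D kinase, rose by 1.37, Ccnd2 fell by 1.16 and Rb1 by 0.84 on the log2 scale. Ccnd1, Myc and Cdkn1a did not pass at 0.04, -0.02 and -0.71. Corrected, Cdkn1a fell by 0.81 and was called. Of the 12 stem cell markers 2 rose and 3 fell, with a sum of 306 to 446 CPM in Post 2'-FL and 253 to 320 CPM in Post control. Paneth cell markers summed to 13200 to 32700 CPM in Post 2'-FL and 6890 to 8810 CPM in Post control, with 5 of 9 higher as deposited and 1 of 9 corrected. B cell markers summed to 18.3 to 74.2 CPM in Post 2'-FL and 20.7 to 33.3 CPM in Post control, and 1 of 9 fell. Of 8 smooth muscle markers 3 rose in both fits, and their sum ran from 1570 to 1830 CPM in Post 2'-FL and from 787 to 1230 CPM in Post control. Of 12 enterocyte markers 4 fell in both fits and 1 rose as deposited. Myeloid markers summed to 265 to 588 CPM in Post 2'-FL and 164 to 236 CPM in Post control, with 1 of 8 lower and 1 higher. The sums of smooth muscle, enterocyte, myeloid, Paneth cell and exocrine pancreas markers did not overlap between the Post groups, and each was higher in Post 2'-FL. The enterocyte sum was 68500 to 72300 CPM in Post 2'-FL and 54500 to 66800 CPM in Post control. The pancreas sum was 17.7 to 23.3 CPM in Post 2'-FL and 7.32 to 17 CPM in Post control. It rests on Cela1, since 5 or 6 of the 7 genes had 0 counts in each of these libraries, and does not stand for a cell type. Of 7 endothelial markers 1 fell, 0 T cell and 0 fat cell markers were called, and Cela1 rose by 0.91 as deposited and was not called corrected. The part of these cell types in the result was not tested.

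Between the groups labelled Pre, 0 of 40 members were called in edgeR, where 0.0152% of all genes fell and 0% rose. An unadjusted p under 0.05 was reached by 0 members and 445 genes, and DESeq2 also called 0 members. The libraries of the 2 groups overlapped for all 40 members, where they lay apart for 4.91% of all genes with Pre 2'-FL lower and 4.31% with it higher. Bub1, a checkpoint kinase gene, had the smallest p, with 6.65, 13.0 and 9.15 CPM in Pre 2'-FL, against 6.36, 5.99 and 7.84 CPM in Pre control (0.50 ± 0.29, SE, adjusted p = 1). Pcna had 82.9, 98.3 and 94.4 CPM in Pre 2'-FL, against 81.6, 84.4 and 107 CPM in Pre control. Rrm1 had 37.8, 49.2 and 45.4 CPM in Pre 2'-FL, against 28.0, 27.4 and 49.9 CPM in Pre control (0.33 ± 0.25, SE, adjusted p = 1). Kif20a had 11.5, 15.9 and 13.4 CPM in Pre 2'-FL, against 10.2, 7.01 and 14.4 CPM in Pre control, and Cdc45 had 6.89, 9.53 and 10.2 CPM in Pre 2'-FL, against 4.45, 5.08 and 10.5 CPM in Pre control. For Kif20a, Pre control 3 lay within the range of Pre 2'-FL, and for Cdc45 above it. Cenpa had 13.9, 16.6 and 19.7 CPM in Pre 2'-FL, against 11.9, 10.5 and 18.3 CPM in Pre control, and Tyms had 30.1, 28.6 and 30.3 CPM in Pre 2'-FL, against 22.2, 23.9 and 31.9 CPM in Pre control. The log2 changes of Mcm6, Mki67, Top2a and Ccnb1 were 0.04, 0.14, 0.30 and -0.10. The 40 log2 changes ran from -0.23 (Gins1) to 0.50 (Bub1).

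Whether the arms differed was tested by the interaction, in which the control arm's change is subtracted from that of the 2'-FL arm. It was called for 7 members, all higher, where 7.47% of all genes were higher and 8.03% lower. The 7 were Gins2 (1.70), Birc5 (1.67), Ccne1 (1.67), Cenpa (1.56), Tk1 (1.50), Rrm2 (1.48) and Pcna (0.92 on the log2 scale). They are 17.5% of the members. Birc5 had 21.4, 31.1 and 24.6 CPM in Pre 2'-FL, against 19.8, 16.9 and 33.3 CPM in Pre control. Tk1 had 23.1, 20.5 and 26.1 CPM in Pre 2'-FL, against 18.7, 15.5 and 32.2 CPM in Pre control. Ccne1 had 4.71, 5.16 and 5.42 CPM in Pre 2'-FL, against 4.20, 4.17 and 6.89 CPM in Pre control. In each of these 3 genes Pre control 3 was above the whole of Pre 2'-FL and the other two Pre control libraries below it. The ring genes were not called, with estimates from -0.10 (Mcm6) to 0.56 (Mcm5). Cdk1 at 1.22 ± 0.45 (SE, adjusted p = 0.0793) and Ccnb1 at 1.00 ± 0.37 (SE, adjusted p = 0.0795) did not pass. Of the 33 members not called, the estimates ran from -1.41 (Foxm1) to 1.61 (Gins1). Corrected for length and GC, the interaction was called for 0 members and for 0 of all genes by edgeR, with an unadjusted p under 0.05 for 11 members, all higher, and the median estimate of the members was 0.61, against 0.57 as deposited. Leaving out single libraries gave 2 to 10 calls as deposited, with 2 left without Post control 3 and 4 left without Post 2'-FL 1, Post 2'-FL 3 or Pre control 3, and Birc5 was called each time.

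The levels of replication and mitosis genes as classes were compared by description alone. The mean log2 CPM of the 20 replication genes was 3.99, 3.64 and 3.91 in Post 2'-FL, 3.01, 3.00 and 3.30 in Post control, 3.83, 4.14 and 4.09 in Pre 2'-FL, and 3.75, 3.68 and 4.38 in Pre control. That of the 20 mitosis genes was 4.38, 4.01 and 4.21 in Post 2'-FL, 3.39, 3.28 and 3.91 in Post control, 4.10, 4.73 and 4.56 in Pre 2'-FL, and 4.24, 3.83 and 4.73 in Pre control. For the replication genes the 3 Post control libraries were the lowest of the 12, and for the mitosis genes Post control 3 lay above Pre control 2. In the control arm the class mean changed by -0.83 for replication and -0.74 for mitosis genes, and in the 2'-FL arm by -0.18 and -0.26. Between the Post groups the differences were 0.74 and 0.67, and between the Pre groups 0.09 and 0.20.

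The level of the replication class minus that of the mitosis class was -0.36 ± 0.05 in Post 2'-FL, -0.42 ± 0.16 in Post control, -0.44 ± 0.17 in Pre 2'-FL and -0.33 ± 0.17 in Pre control (log2 units, SD, n = 3). The change of this difference was -0.09 in the control arm and 0.09 in the 2'-FL arm, 0.07 between the Post groups and -0.11 between the Pre groups. Each was smaller than the SD of 3 of the 4 groups, but the changes in the 2'-FL arm and between the Post groups exceeded the SD of 0.05 in Post 2'-FL. Corrected, the values were -0.10 in the control arm, 0.13 in the 2'-FL arm, 0.12 between the Post groups and -0.10 between the Pre groups. Without Post control 3 the value between the Post groups was -0.02 and that of the control arm 0.00. The classes were not compared by a test.

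**Figure D3:**
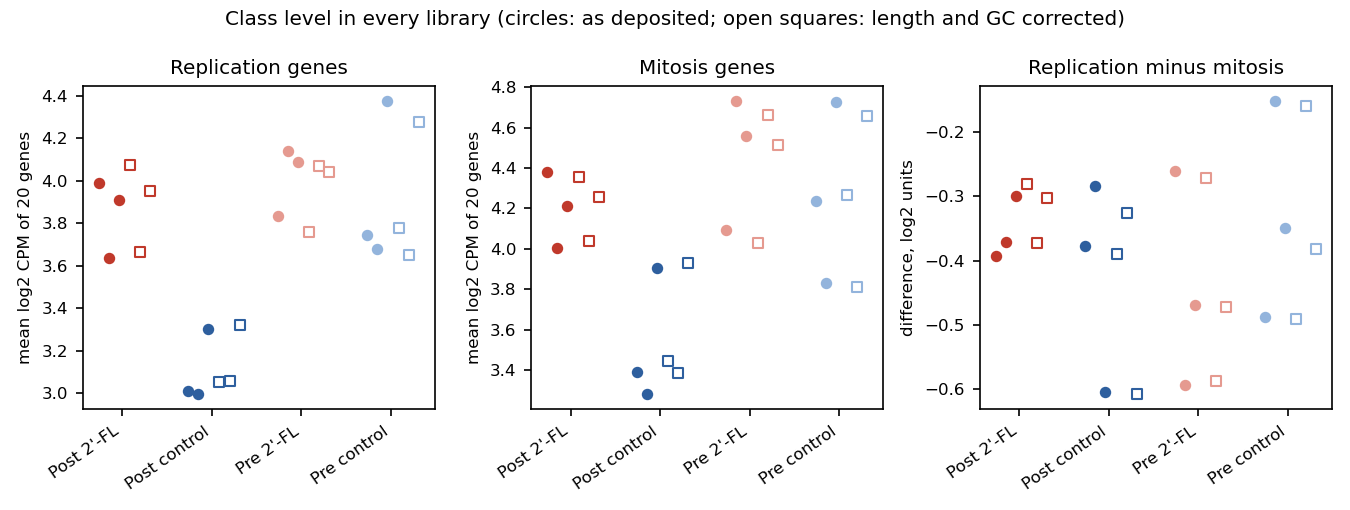
Mean log2 CPM of the 20 replication genes (left) and the 20 mitosis genes (middle), and the replication minus mitosis difference (right), in each library of the 4 groups; circles are counts as deposited and open squares corrected values. Both classes are lowest in Post control, and the difference lies between -0.61 and -0.15 in every library.

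Over the 40 members the change went with the length of the coding sequence. With both classes pooled, Spearman's rho between coding length and log2 change was -0.58 in the control arm, -0.79 in the 2'-FL arm and -0.74 between the Post groups, and -0.38, -0.48 and -0.31 corrected. These are descriptions over genes that share the same 12 libraries. In the 2'-FL arm the median log2 change was 0.79 for the 9 members with up to 1000 coding nucleotides, 0.00 for the 15 above that and up to 2000, and -0.89 for the 16 with more. Between the Post groups the medians were 1.38, 0.89 and 0.30, and in the control arm -0.19, -0.98 and -1.02. Cenpa has the shortest coding sequence of the 40, at 402 nucleotides, and Mki67 the longest, at 9531. In the 2'-FL arm Plk1 (1809) and Foxm1 (2271) fell further than members of like length.

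**Figure D4:**
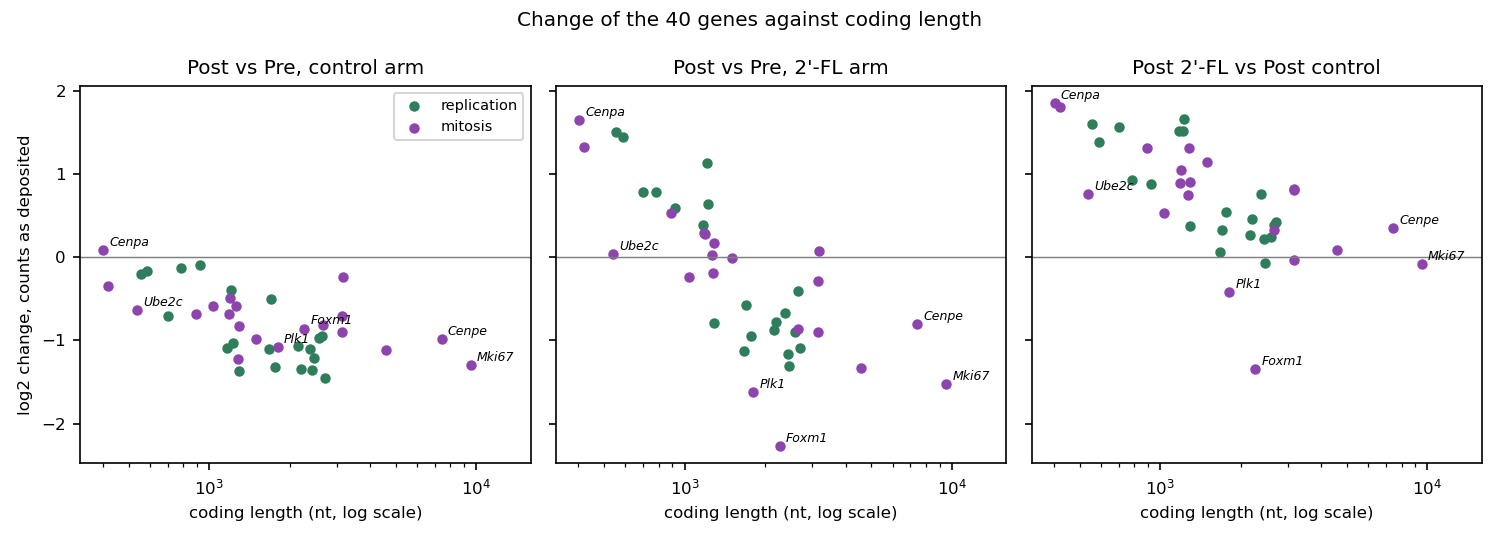
Log2 change as deposited of the 40 genes (y axis) against coding length in nucleotides (x axis, log scale), in 3 comparisons; green points are replication and purple points mitosis genes. Short coding sequences such as Cenpa lie high and long ones such as Mki67 low, most steeply in the 2'-FL arm. In that arm Foxm1 and Plk1 lie below genes of like length.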

How the data were processed

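Small bowel RNA was measured in 12 libraries, prepared from 1.5 µg RNA with Illumina's TruSeq kit and read on a HiSeq 2000, per the labels' protocols. The deposited files hold estimated read counts per gene (expected counts, 15.2% to 20.5% of entries fractional), which the authors had not normalised. Build mm10 and DESeq are named in the submitters' processing notes, and the aligner, counter, annotation and strand are not given in the sources used here. Entries were summed per Entrez gene and rounded, genes kept with filterByExpr, scaled with TMM and fitted in edgeR 4.0.16 (R 4.3.3) as 1 quasi-likelihood model with 4 group means, a biological coefficient of variation of 0.238 and 8 residual degrees of freedom. Tests were two-sided, with Benjamini-Hochberg adjustment over 13154 genes. An SE is the size of a log2 change over the root of its F.

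For the correction, each library's log2 CPM (prior count 2), centred on gene means, was fitted by natural splines (4 degrees of freedom) on length and GC of the longest GENCODE transcript matched to a curated RefSeq mRNA (12654 genes), and the fit entered edgeR as offsets. Reads without molecular identifiers are not independent molecules. The members, the lists and the correction were chosen with earlier results of these data known. Values in every library were given for Mki67, Pcna, Mcm6, Ccnb1 and Top2a and for the 3 members of each class with the smallest p; all called members are named. DESeq2 1.42.0, RLE scaling, no filter, fits of the compared groups alone, replicate blocks and left-out libraries were the alternatives; other lengths were added after the data were seen. The scripts were tested on simulated counts.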

Additional observations from a re-analysis of the deposited data

Results flagged for a closer look

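The change after resection differed between the arms for 7 cell cycle genes in edgeR's test of the interaction, on the counts as deposited. With the control arm's change subtracted from that of the 2'-FL arm, the difference was 1.70 ± 0.43 for Gins2, 1.67 ± 0.39 for Birc5, 1.67 ± 0.44 for Ccne1, 1.56 ± 0.38 for Cenpa, 1.50 ± 0.36 for Tk1, 1.48 ± 0.40 for Rrm2 and 0.92 ± 0.26 for Pcna (log2 units, SE), with adjusted p from 0.0178 for Birc5 to 0.0296 for Pcna. Gins2, Birc5, Cenpa, Tk1 and Pcna rose in the 2'-FL arm and were not called in the control arm, Rrm2 fell in the control arm alone, and Ccne1 was called in neither arm. After the length and GC correction the values were 2.26 for Gins2, 1.80 for Birc5, 1.53 for Ccne1, 1.17 for Tk1, 1.08 for Rrm2, 0.83 for Cenpa and 0.13 for Pcna, and none passed, with an adjusted p of 0.0557 for Gins2 and 0.0584 for Birc5. The annotated lengths behind these corrected values include 3900 nt for Gins2 and 3334 nt for Birc5, whose coding sequences are 555 and 420 nt.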

How the results depend on the processing

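RLE scaling, no filter on low counts, DESeq2 and fits of the compared groups alone kept every count of called members within 1.5 times the main one where they could be run (the interaction needs all 4 groups). The 2'-FL arm count of 23 became 12 with the length and GC correction, 14 with the correction and a replicate block, 9 with the shortest transcript and 6 with coding length. The interaction count of 7 became 0, 0, 1 and 0 in the same order, and 4 with a replicate block (1 lower, 3 higher). The labels do not say whether the numbers pair the samples. Correlations of same-numbered libraries ran from -0.23 to 0.42, which cannot decide it with 3 libraries a group. The block moved no other count by over 1.5 times (18, 23, 20 and 0 for the control arm, 2'-FL arm, Post and Pre comparisons). With single libraries left out, counts ran from 2 to 19 in the control arm (2 to 18 corrected), 16 to 23 in the 2'-FL arm (7 to 13), 11 to 21 between the Post groups (7 to 15), 2 to 10 in the interaction (0 to 7), and stayed at 0 between the Pre groups. Corrected, 8 were called in the 2'-FL arm without Pre 2'-FL 2 and 8 between the Post groups without Post control 2. Signs changed in the 2'-FL arm for Pcna (-0.223 corrected, -0.224 with the block too), Ccne2 (-0.002 corrected with the block), Mcm5 (0.024) and Bub1b (0.187) with coding length, and between the Post groups for Ube2c (-0.066 corrected, -0.046 with the block too); the correction was built to remove length trends, and no other cause was tested. The replication minus mitosis difference between the Post groups was 0.07 as deposited and 0.12 corrected, a move larger than the SD of 0.05 in Post 2'-FL, and ran from -0.02 to 0.14 with single libraries left out.

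Depth limits the lowest genes: 1 count was worth 0.107 to 0.177 CPM, and E2f1 and Cdc6 stood at a few CPM.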
